A study of Homo sapiens with 6 samples.

Results

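The genes described here encode the subunits and activators of the proteasome. They were chosen by symbol, as the protein-coding genes *PSMA1* to *PSMA7*, *PSMB1* to *PSMB10*, *PSMC1* to *PSMC6*, *PSMD1* to *PSMD14* and *PSME1* to *PSME4*. All 41 symbols were found among the 62710 rows analysed, of which 20026 are protein-coding genes. The rule itself used no measured value, but the genes were chosen with earlier results of these data known. RNA was sequenced in bulk from H526, a small cell lung cancer (SCLC) line grown in RPMI-1640 with fetal bovine serum. The 3 parental libraries (numbered 1, 2 and 3) came from H526 cells labelled parental. The 3 resistant libraries (7, 8 and 9) came from onvansertib-resistant H526 cells, for which the labels name no separate clones, and in which this inhibitor of polo-like kinase 1 (PLK1) had been raised from 10 to 75 nM over about a year. RNA of both was extracted on 3 occasions, and nothing says that the lines were derived more than once, so p-values measure the spread between extractions. No concurrent short treatment with onvansertib was compared here, so selection and the presence of drug cannot be told apart. In bulk RNA, a smaller number of cells expressing a gene and less RNA per cell cannot be told apart either.

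The proteasome degrades proteins that carry ubiquitin chains. Its barrel-shaped core is built from rings of alpha subunits (PSMA), which form the gate, and of beta subunits (PSMB), of which *PSMB5*, *PSMB6* and *PSMB7* encode the proteolytic β5, β1 and β2. In immune cells, and after interferon, *PSMB8* (β5i), *PSMB9* (β1i) and *PSMB10* (β2i) take their places, which gives the immunoproteasome, a form that cuts proteins into peptides well suited to MHC class I molecules. The core is capped by a regulatory particle, made of a base with ATPases that unfold substrates (PSMC) and a lid that removes ubiquitin (most PSMD genes), or by activators, the PSME genes. PLK1 drives mitosis, in which the proteasome degrades cyclins and securin.

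The start regions of the immunoproteasome genes and of the interferon-regulated activator genes *PSME1* and *PSME2* are printed because the 5 genes did not move together in the values below. Each sequence is the RefSeq window (GRCh38.p14) from 250 bases before to 50 bases after the annotated transcript start, 5′ to 3′ on the strand of the gene. Capitals mark GAAANNGAA, the core letters of the interferon-stimulated response element, on either strand. The windows are chr6:32844630-32844929 on the minus strand for *PSMB8*, chr6:32853942-32854241 on the plus strand for *PSMB9*, chr16:67936801-67937100 on the minus strand for *PSMB10*, chr14:24135944-24136243 on the plus strand for *PSME1* and chr14:24146561-24146860 on the minus strand for *PSME2*.
PSMB8: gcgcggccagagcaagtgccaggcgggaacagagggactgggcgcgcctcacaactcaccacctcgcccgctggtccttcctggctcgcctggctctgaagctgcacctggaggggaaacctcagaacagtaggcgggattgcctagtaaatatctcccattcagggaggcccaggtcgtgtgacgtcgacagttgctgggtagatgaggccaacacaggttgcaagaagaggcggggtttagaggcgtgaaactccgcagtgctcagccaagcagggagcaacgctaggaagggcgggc
PSMB9: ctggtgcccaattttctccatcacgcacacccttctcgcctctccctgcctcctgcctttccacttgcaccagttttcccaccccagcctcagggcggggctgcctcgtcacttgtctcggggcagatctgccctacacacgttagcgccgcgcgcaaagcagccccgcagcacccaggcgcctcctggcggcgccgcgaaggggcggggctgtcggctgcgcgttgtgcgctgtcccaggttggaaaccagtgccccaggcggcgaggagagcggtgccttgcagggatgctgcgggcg
PSMB10: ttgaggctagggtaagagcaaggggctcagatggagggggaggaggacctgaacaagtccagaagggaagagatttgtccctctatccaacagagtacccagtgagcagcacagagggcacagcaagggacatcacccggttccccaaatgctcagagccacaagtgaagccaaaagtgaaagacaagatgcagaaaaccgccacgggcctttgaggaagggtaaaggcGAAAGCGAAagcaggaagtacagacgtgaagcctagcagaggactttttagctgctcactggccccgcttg
PSME1: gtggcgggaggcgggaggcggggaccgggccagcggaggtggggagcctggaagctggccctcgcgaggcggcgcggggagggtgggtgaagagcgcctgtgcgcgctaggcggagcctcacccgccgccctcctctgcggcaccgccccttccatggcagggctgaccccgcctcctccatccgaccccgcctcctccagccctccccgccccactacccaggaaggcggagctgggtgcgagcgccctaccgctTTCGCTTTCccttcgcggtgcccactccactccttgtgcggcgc
PSME2: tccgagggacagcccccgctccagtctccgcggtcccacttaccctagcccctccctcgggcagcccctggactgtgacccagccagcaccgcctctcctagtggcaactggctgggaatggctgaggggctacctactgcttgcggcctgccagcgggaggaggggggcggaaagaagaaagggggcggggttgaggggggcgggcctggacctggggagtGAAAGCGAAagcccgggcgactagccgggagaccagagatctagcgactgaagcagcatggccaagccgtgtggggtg

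A window was at hand for 36 of the 41 genes, the exceptions being *PSMA7*, *PSMB1*, *PSMB6*, *PSMB7* and *PSMD4*. GAAANNGAA stood in 6 of the 36 (*PSMA4*, *PSMB4*, *PSMB10*, *PSMC2*, *PSME1* and *PSME2*), and in 8.29% of the 27305 windows of this length in the table. In *PSMB10* and *PSME2* the match began at offsets -21 and -28 from the first transcribed base, and in *PSME1* at offset 6, where it lies on the opposite strand. Those 3 matches share the letters GAAAGCGAA, whereas the *PSMB8* and *PSMB9* windows held neither GAAANNGAA nor TTCNNNGAA, the palindromic letters of the gamma-activated site. TTCNNNGAA stood in 4 of the 36 windows and in 7.88% of all. TGACNNNGC, the letters of the antioxidant response element read by NFE2L1 and NFE2L2, stood in 11 of the 36, *PSMB9*, *PSME1* and *PSME2* among them, and in 13.6% of all. CCAAT, the box read by NF-Y, stood in 17 of the 36 and in 35.7% of all. These are matches of letters in one window per gene, on both strands, and say nothing of binding.

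The deposited values are gene counts that the authors normalized for library size, and are no longer whole reads. The depth estimated from the low values was between 25614014 and 28477043 reads in parental and between 22305324 and 23328117 reads in resistant libraries, and 3 reads correspond to a value between 2.67 and 3.23, a limit that covers counting error only. All 41 genes passed the minimum mean value of 10, which 16347 genes reached, and in 36 of the 41 the parental mean was at least 1000. *POU2F3*, which marks the tuft-cell-like subtype of SCLC, had mean values of 25809 in parental and 27273 in resistant cells, and *YAP1*, which marks another subtype, rose from 48.9 to 111 (log2 fold change 1.17, adjusted p = 0.00236). Of 10 leukocyte markers, whose cells carry the immunoproteasome constitutively, 5 were at 0 throughout and 8 at or under 3 reads in every library, *PTPRC* at 0 in all resistant libraries. The sum of the 10 was between 21.8 and 23.5 in parental and between 18.3 and 32.6 in resistant libraries. Of 7 stromal and endothelial markers, 4 were tested and 3 passed, *COL1A1*, *COL1A2* and *VWF*, all higher in resistant cells. That is 75% higher, against 17.8% of all genes tested. *COL3A1* went the other way in value, from 18.0 in parental to 10.6 in resistant cells. Its log2 fold change of -0.73 did not pass (adjusted p = 0.247). *CDH5* was at 0, and *PECAM1* and *DCN* were near 0. The sum of the 7 was between 382 and 530 in parental and between 824 and 1046 in resistant libraries, and its part in the results below was not tested. The neuroendocrine genes *INSM1*, *SYP*, *CHGA* and *NCAM1* were lower in resistant cells.

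Resistant cells had more mRNA of 2 of the 3 immunoproteasome subunits and slightly less of many genes of the standard proteasome. On log2(value + 1), limma with Benjamini-Hochberg adjustment over all 16347 genes called 9 of the 41 genes (22.0%) higher and 15 (36.6%) lower at a threshold of 0.05 for the adjusted p, against 17.8% higher and 19.8% lower among all genes tested. The remaining 17 did not pass. Of the 15 lower genes, only *PSMA7*, *PSMB6*, *PSMC5* and *PSMD14* kept their call in all 14 alternative settings, described below. In several of these settings the share of the 41 genes called lower was no higher than that of all genes. Parental and resistant values stayed apart without overlap in 26 of the 41 (63.4%), and in 49.9% of all genes. The changes were small outside the immunoproteasome. The absolute log2 fold change reached 0.5 in 4 of the 41, *PSMB8*, *PSMB9*, *PSMC2* and *PSMD9*, and in 31.1% of all genes, and the mean changed by less than 25% in 34 of the 38 genes that are not immunoproteasome subunits. The median log2 fold change was -0.12 over the 41 genes and -0.00 over all genes tested.

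**Figure D1:**
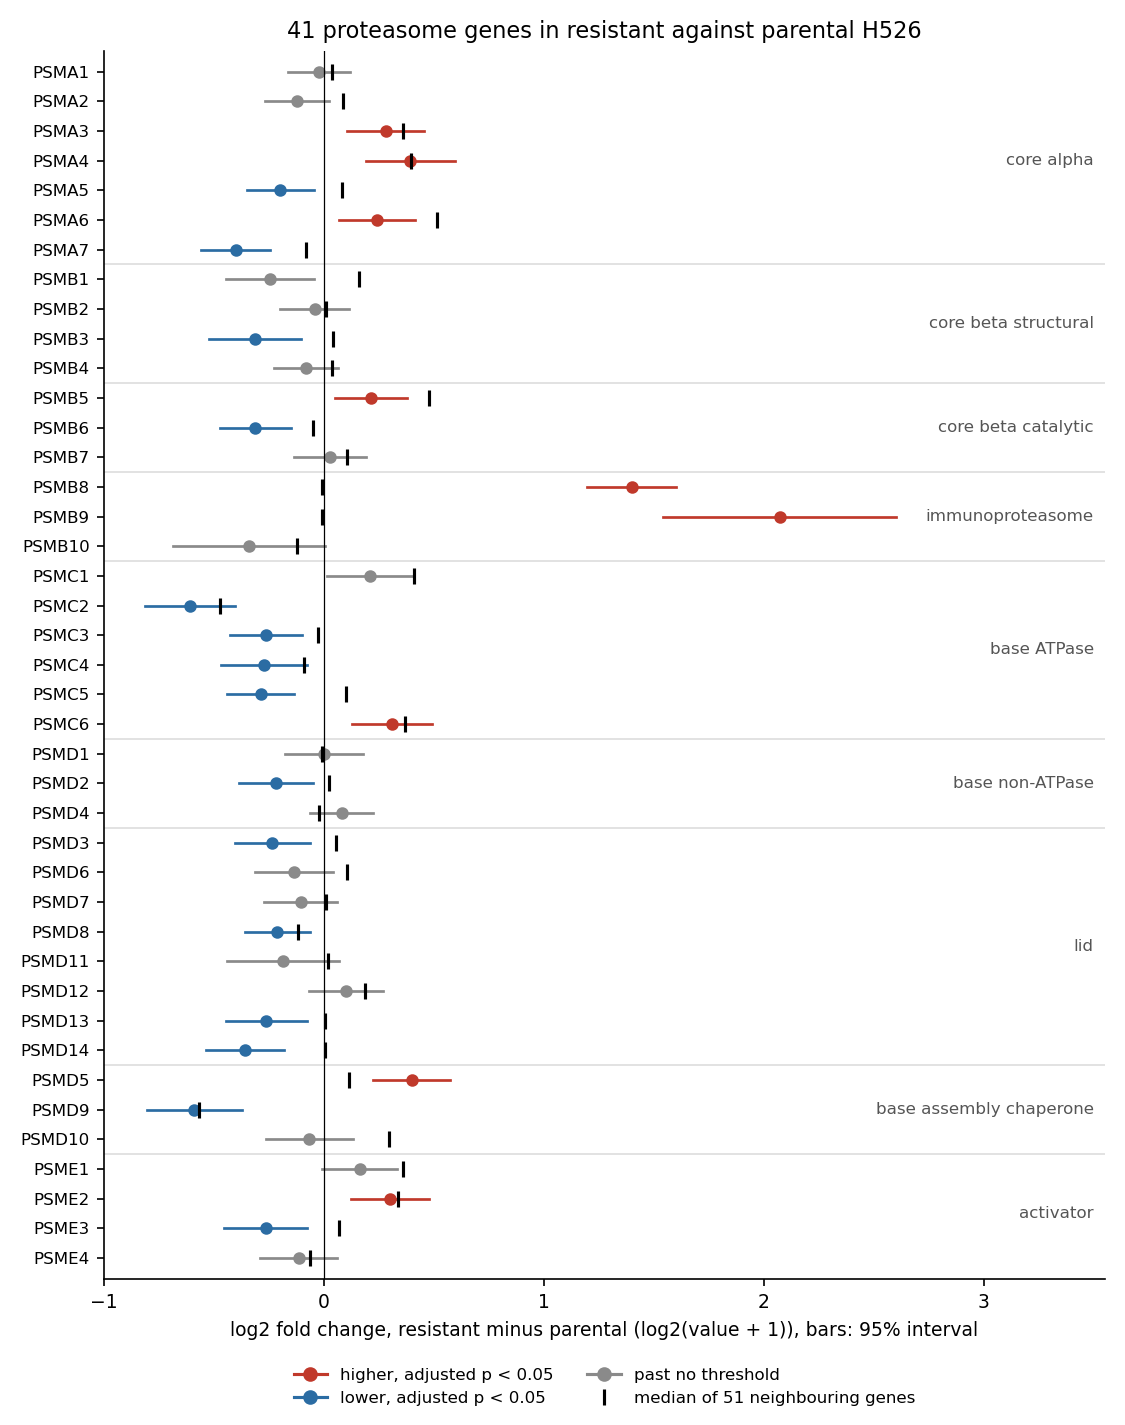
Log2 fold change (horizontal axis, resistant minus parental on log2(value + 1)) of each of the 41 genes, grouped by role. Points are limma estimates with 95% intervals from 3 libraries per group, colours give the call, and black ticks give the median of the 51 genes around each gene on its chromosome. *PSMB8* and *PSMB9* lie at 1.40 and 2.07, and the other 39 genes between -0.61 and 0.40.

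*PSMB8* (ENSG00000204264, chromosome 6, 32840717 to 32844679), the β5i subunit, had values of 558, 654 and 606 in the parental libraries and of 1627, 1488 and 1677 in the resistant libraries. Every resistant value was far above every parental one. The means were 606 ± 48.1 and 1598 ± 97.7 (SD, n = 3), and the log2 fold change was 1.40 (SE 0.0906, adjusted p = 3.31e-06).

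*PSMB9* (ENSG00000240065, chromosome 6, 32844136 to 32859851), the β1i subunit, stood at 68.0, 119 and 71.3 in parental and at 339, 295 and 443 in resistant libraries. The groups were far apart, although each held one library well above its other two, parental library 2 and resistant library 9. With means of 86.2 ± 28.7 and 359 ± 76.1 (SD, n = 3), it rose 4.16-fold in value and by 2.07 on the log2 scale (SE 0.238, adjusted p = 0.000115).

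*PSMB10* (ENSG00000205220, chromosome 16, 67934506 to 67936864), the β2i subunit, went the other way in value. It stood at 169, 177 and 195 in parental and at 137, 132 and 158 in resistant libraries, so that the groups did not overlap. The mean was 180 ± 13.3 in parental and 142 ± 13.7 in resistant cells (SD, n = 3), and the log2 fold change of -0.34 (SE 0.155, 95% interval -0.69 to 0.00) did not pass (adjusted p = 0.111). Its lowest adjusted p over the 14 alternative settings was 0.0545.

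*PSMB8* and *PSMB9* kept their call and direction in all 14 alternatives, with log2 fold changes from 1.34 to 1.45 and from 1.91 to 2.33. Their genes lie side by side in the MHC class II region. The annotated span of *PSMB9* overlaps *PSMB8*, the antisense transcript *PSMB8-AS1* (mean 30.0 in parental, 132 in resistant cells) and *TAP1*, which carries peptides into the endoplasmic reticulum. Whether the counting used strand is not given in the sources used here, so reads of the overlapping parts cannot be told apart. *TAP1* had a parental value of 1384 ± 30.6 and rose by a log2 fold change of 0.73 to 2308 ± 347 (SD, n = 3, adjusted p = 0.000335). Around *PSMB8* and *PSMB9*, the 51 nearest tested genes had a median of -0.01 on the log2 scale. In *PSMB10*, whose neighbours had a median of -0.13, the overlapping read-through gene ENSG00000261884 stood at 61.9 in parental and 23.0 in resistant cells.

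Each standard catalytic subunit remained above the immunoproteasome subunit that takes its place, in value and per kilobase, in every library. *PSMB5* (β5, chromosome 14, 23016543 to 23035230) had values of 3100, 2735 and 2826 in parental and of 3519, 3139 and 3370 in resistant libraries. The resistant values were all higher, though resistant library 8 lay close to parental library 1, and the log2 fold change of 0.21 (SE 0.0733) had an adjusted p of 0.044. That call was lost without parental library 2 or 3 or resistant library 7 or 9, one at a time, and the direction turned under centring on chromosomal neighbours, described with chromosome 14 below. *PSMB6* (β1, chromosome 17, 4796144 to 4798502) fell from 2624, 2471 and 2514 in parental to 2172, 1894 and 2066 in resistant libraries. The groups did not overlap, and its log2 fold change of -0.31 (SE 0.0724, adjusted p = 0.00701) kept its call in all 14 alternatives. *PSMB7* (β2, chromosome 9, 124353465 to 124415444) had values of 2693, 2314 and 2445 against 2600, 2436 and 2539, which overlapped. Its log2 fold change was 0.03 (95% interval -0.14 to 0.19, adjusted p = 0.813).

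**Figure D2:**
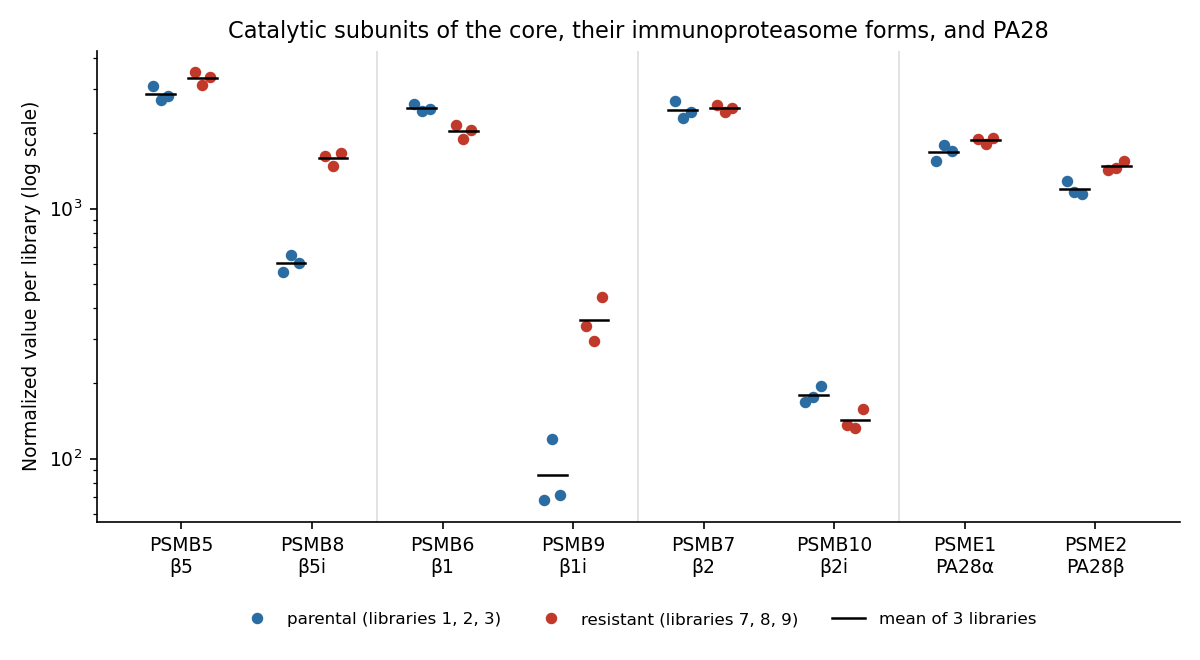
Normalized value in each library (log axis) of the 3 standard catalytic subunits, the immunoproteasome subunit that takes the place of each, and the PA28 activator genes *PSME1* and *PSME2*. Dots are single libraries and black bars the mean of 3. The resistant dots of *PSMB8* and *PSMB9* lie clear above the parental ones, those of *PSMB10* slightly below, and the *PSMB7* dots overlap.

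The ratio of each immunoproteasome mRNA to the standard subunit it replaces was taken within each library, which removes the scaling of the libraries. Divided by the length of the canonical transcript, *PSMB8* amounted to 16.7%, 22.2% and 19.9% of *PSMB5* in the parental and to 42.9%, 44.05% and 46.2% in the resistant libraries. The log2 ratio rose by 1.19, or 2.28-fold. *PSMB9* amounted to 2.10%, 3.91% and 2.30% of *PSMB6* in the parental and to 12.6%, 12.6% and 17.4% in the resistant libraries, a rise of 2.39 in the log2 ratio or 5.22-fold. *PSMB10* amounted to 6.32%, 7.69% and 8.03% of *PSMB7* in the parental and to 5.30%, 5.46% and 6.26% in the resistant libraries, a change of -0.37 in the log2 ratio. In each pair the groups did not overlap, which gives the smallest p that an exact two-sided permutation test of 3 against 3 can reach, 0.10. Over the 7 ratios tested, 4 of them chosen after the values were seen, the Benjamini-Hochberg adjusted p was 0.117 for these and for all others except *PSME2* to *PSME1*.

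The ratios of the immunoproteasome subunits to each other also differed in value between the groups. *PSMB9* was 15.5% ± 4.01 of *PSMB8* per kilobase in parental and 24.7% ± 3.93 in resistant cells (SD, n = 3). The log2 ratio rose by 0.67. The groups did not overlap, but parental library 2, at 20.2%, lay close to resistant library 8, at 21.9%. Relative to *PSMB10*, the log2 ratio of *PSMB8* rose by 1.74 and that of *PSMB9* by 2.41. In parental cells *PSMB9* mRNA was the scarcest of the 3, with 46.2% ± 16.2 of the *PSMB10* level per kilobase, and in resistant cells it stood at 241% ± 27.7 (SD, n = 3). Of the summed level per kilobase of the 6 catalytic genes, the 3 immunoproteasome genes made up 7.65%, 9.94% and 8.94% in the parental and 18.2%, 18.4% and 20.1% in the resistant libraries. The standard subunits thus still supplied most catalytic mRNA in every library.

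**Figure D3:**
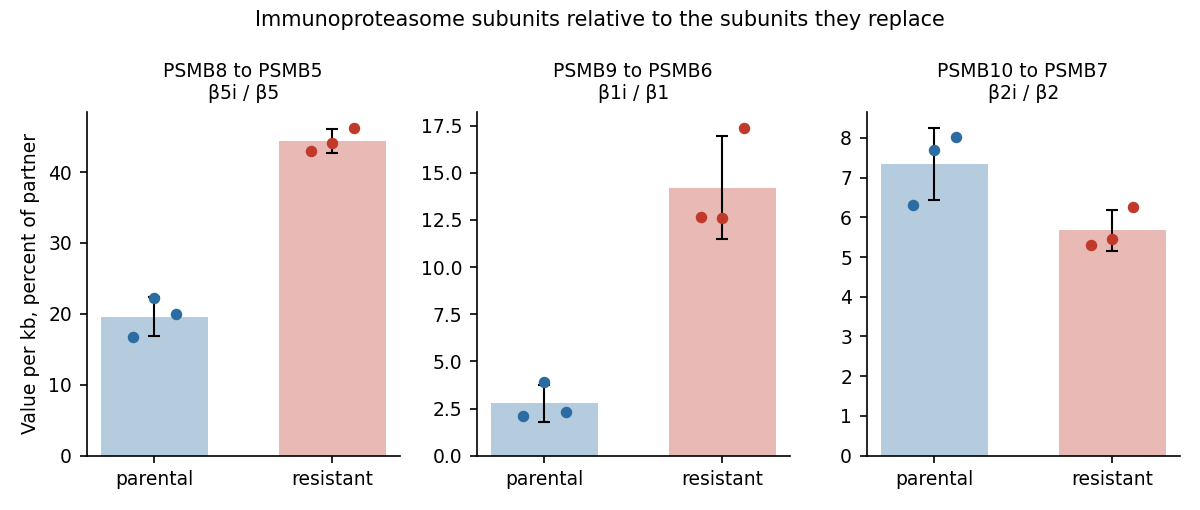
Level per kilobase of each immunoproteasome subunit as a percent of the standard subunit it replaces (vertical axes, each starting at 0, with a scale of its own). Bars are means, error bars SD and dots the 3 libraries of each group. The *PSMB8* and *PSMB9* percentages are higher in every resistant library, and the *PSMB10* percentage is lower in every resistant library.

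Among the 7 alpha subunits of the core, 3 were higher (42.9%) and 2 lower (28.6%), against 17.8% and 19.8% of all genes tested. *PSMA7* (chromosome 20, 62136733 to 62143440), the gene with the highest level per kilobase of the 41 in parental cells, had values of 12104, 11481 and 12854 in parental and of 9630, 8455 and 9531 in resistant libraries. Its fall, clear of any overlap, was the largest of the core, with a log2 fold change of -0.40 (SE 0.0705, adjusted p = 0.00151), and held in all 14 alternatives. *PSMA4* rose from 4279 ± 510 to 5600 ± 401 (SD, n = 3; log2 fold change 0.39, adjusted p = 0.00679). *PSMA3* and *PSMA6* were higher by 0.28 and 0.24 on the log2 scale and *PSMA5* lower, with -0.20. The calls of *PSMA3* and *PSMA6* were lost without parental library 2 or 3 or resistant library 7, and that of *PSMA6* also without resistant library 9. The call of *PSMA5* was lost without parental library 1, 2 or 3 or resistant library 8 or 9. *PSMA1* (-0.02) and *PSMA2* (-0.12) did not pass. *PSMA3* overlaps *ARMH4* on the other strand, which stood at 2259 in parental and 4323 in resistant cells.

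The 4 beta subunits without a catalytic site were below their parental mean in resistant cells, and 1 of them passed. That is 25% lower, against 19.8% of all genes tested. *PSMB3* had a log2 fold change of -0.31 (adjusted p = 0.0244), a call lost without parental library 1 or 3 or resistant library 8 or 9. *PSMB1* had -0.25 (adjusted p = 0.0532) and was called lower without parental library 2 or resistant library 7. *PSMB4* had -0.08 and *PSMB2* -0.04. Over the 14 core genes outside the immunoproteasome, 4 were higher and 4 lower (28.6% each, against 17.8% and 19.8% of all genes). The median of the 14 was -0.06 on the log2 scale, with a range from -0.40 to 0.39. The summed level per kilobase changed by -8.54% for the alpha genes, by -10.5% for the structural beta genes and by -1.43% for the standard catalytic genes. The alpha sum went from 23998 to 21949, and *PSMA7* alone from 12626 to 9569, a larger fall than that of the sum. The weight of each gene in these sums depends on the length of its canonical transcript.

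The regulatory particle leaned more to one side, with 9 of 17 base and lid genes lower (52.9%) and 1 higher (5.88%). Among all genes tested, 19.8% were lower and 17.8% higher. Of the 9 lower genes, only *PSMC5* and *PSMD14* kept their call in all 14 alternatives. The median log2 fold change was -0.21. Of the 6 ATPases of the base, which thread substrates into the core, 4 were lower (66.7%) and *PSMC6* was higher (log2 fold change 0.31, adjusted p = 0.0142). *PSMC2* (chromosome 7, 103328570 to 103370346) had values of 3807, 3158 and 3243 in parental and of 2461, 2060 and 2163 in resistant libraries. This was the largest fall of the 41 genes, with a log2 fold change of -0.61 (SE 0.0925, adjusted p = 0.000613), and the 51 genes around it had a median of -0.47. *PSMC2* overlaps *PMPCB* and *DNAJC2*, which stood at 2917 and 1369 in parental and at 2342 and 961 in resistant cells. *PSMC5* (log2 fold change -0.29), *PSMC4* (-0.27) and *PSMC3* (-0.26) also fell, and *PSMC5* kept its call in all 14 alternatives. The call of *PSMC3* was lost without parental library 1 or 3 or resistant library 8, that of *PSMC4* also without resistant library 9, and that of *PSMC6* without resistant library 7.

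*PSMC1* had a log2 fold change of 0.21 (adjusted p = 0.0894), called higher without parental library 1, and its 13 processed copies in the genome added up to between 1.39% and 1.79% of its value. The non-ATPase scaffold *PSMD2* of the base fell (log2 fold change -0.22, adjusted p = 0.0424), a call lost on leaving out any library other than parental library 2. *PSMD1*, the other scaffold, had -0.00 with a 95% interval from -0.18 to 0.18, and the ubiquitin receptor *PSMD4* had 0.08. In the lid, 4 of 8 genes were lower (50%, against 19.8% of all genes) and none higher. *PSMD14*, the metalloprotease that cuts ubiquitin chains from the substrate, stood at 1788, 1632 and 1705 in parental and at 1441, 1252 and 1305 in resistant libraries. Its log2 fold change of -0.36 (SE 0.0796, adjusted p = 0.00556) was called in all 14 alternatives. *PSMD13* (-0.26), *PSMD3* (-0.23) and *PSMD8* (-0.21) were lower as well, each losing its call without parental library 3 or resistant library 8 or 9, and the first 2 also without parental library 1. *PSMD6*, *PSMD7*, *PSMD11* and *PSMD12* did not pass, with log2 fold changes from -0.19 to 0.10. The summed level per kilobase changed by -14.3% for the ATPases and by -13.1% for the lid.

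Of the 3 chaperones that hold base intermediates during assembly, 2 moved, in opposite directions. That is 33.3% higher and 33.3% lower, against 17.8% and 19.8% of all genes tested. *PSMD5* rose from 711, 721 and 749 in parental to 980, 955 and 941 in resistant libraries (log2 fold change 0.40, SE 0.0793, adjusted p = 0.00312), in all 14 alternatives. *PSMD9* (chromosome 12, 121888732 to 121918297) fell from 870, 846 and 882 to 517, 583 and 630 (log2 fold change -0.59, SE 0.0973, adjusted p = 0.00103). The spread within each group was small beside both differences. The 51 genes around *PSMD9* had a median of -0.57, and those around *PSMD5* of 0.12. *PSMD10*, also known as gankyrin, had -0.07 (adjusted p = 0.592).

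The activators split as well. *PSME2*, the beta subunit of the interferon-inducible PA28 cap, had values of 1290, 1171 and 1146 in parental and of 1426, 1458 and 1554 in resistant libraries. The groups did not overlap, and the log2 fold change was 0.30 (SE 0.079, adjusted p = 0.0135). That call was lost without parental library 3 or resistant library 9. The 51 genes around *PSME2* had a median of 0.34, and centring on them, described with chromosome 14 below, took it to -0.0067. Its alpha partner *PSME1* had values of 1555, 1793 and 1705 against 1909, 1811 and 1924, just clear of overlap. Its log2 fold change of 0.16 (95% interval -0.01 to 0.33) did not pass (adjusted p = 0.121). The ratio of *PSME2* to *PSME1* changed by 0.14 on the log2 scale, and its groups overlapped (exact two-sided permutation p = 0.40, also after adjustment). Per kilobase, the mean of *PSME1* and *PSME2* was 67.7%, 81.5% and 73.0% of the mean of the 6 ATPases of the base in the parental and 93.5%, 104% and 104% in the resistant libraries. The neighbours of *PSME1* had a median of 0.36. The ATPases include *PSMC2*, whose neighbours had -0.47, and also *PSMC1* and *PSMC6* on chromosome 14. The part of these regions in the percentages was not tested.

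*PSME3*, the nuclear PA28γ, stood at 5623, 5215 and 6176 in parental and at 5239, 4492 and 4424 in resistant libraries, so that resistant library 7 lay just above parental library 2. Its log2 fold change of -0.27 (adjusted p = 0.0327) was lost without parental library 1 or 3 or resistant library 8 or 9. *PSME4*, the single-chain activator PA200, had 3676, 3216 and 3615 against 3507, 3157 and 3038 and a log2 fold change of -0.12 (adjusted p = 0.281).

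Subunits of one complex did not have equal mRNA levels. Per kilobase of canonical transcript, *PSMA7* stood at 12626 ± 715 and *PSMB4* at 10792 ± 382 in parental cells (SD, n = 3), and the lowest of the 41 genes, *PSMB9*, at 84.8 ± 28.2. Within the alpha ring the levels spanned 18.8-fold in parental cells, within the ATPases 5.02-fold, and within the 3 standard catalytic genes 1.22-fold. In resistant cells *PSMB4* and *PSMA7* had the levels 10208 ± 674 and 9569 ± 677, within the spread of the libraries, and the same spans were 16.3-fold, 3.81-fold and 1.29-fold. The canonical transcript need not be the one expressed, which affects levels and spans but no fold change.

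The proteasome genes on chromosome 14 were mostly higher. The 7 genes on chromosome 14 (*PSMA3*, *PSMA6*, *PSMB5*, *PSMC1*, *PSMC6*, *PSME1* and *PSME2*) belong to the core, the base and the activators, and had log2 fold changes from 0.16 to 0.31, with 5 called higher and none lower. All 555 genes tested on chromosome 14 had a median of 0.38, and 53.2% of them were called higher. Each of the 7 lay below the median of its 51 neighbours, which ran from 0.34 to 0.51. Over the 34 genes on other chromosomes, 15 were lower and 4 higher, namely *PSMB8*, *PSMB9*, *PSMA4* and *PSMD5*. Of all genes tested on other chromosomes, 20.4% were lower and 16.6% higher. *PSMA4*, on chromosome 15, equalled its neighbours (both 0.39).

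When each library was centred on the median of the 51 neighbours, all 7 genes of chromosome 14 had negative log2 fold changes, and *PSMB5* (-0.27, adjusted p = 0.0248) and *PSMA6* (-0.26, adjusted p = 0.0233) were called lower. *PSMC2* and *PSMD9* moved to -0.14 and -0.01 and no longer passed. The counts became 3 higher and 14 lower. Over all 41 genes, 36 (87.8%) lay below the median of their neighbours, as 49.9% of all genes did. DNA copy number was not analysed here.

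**Figure D4:**
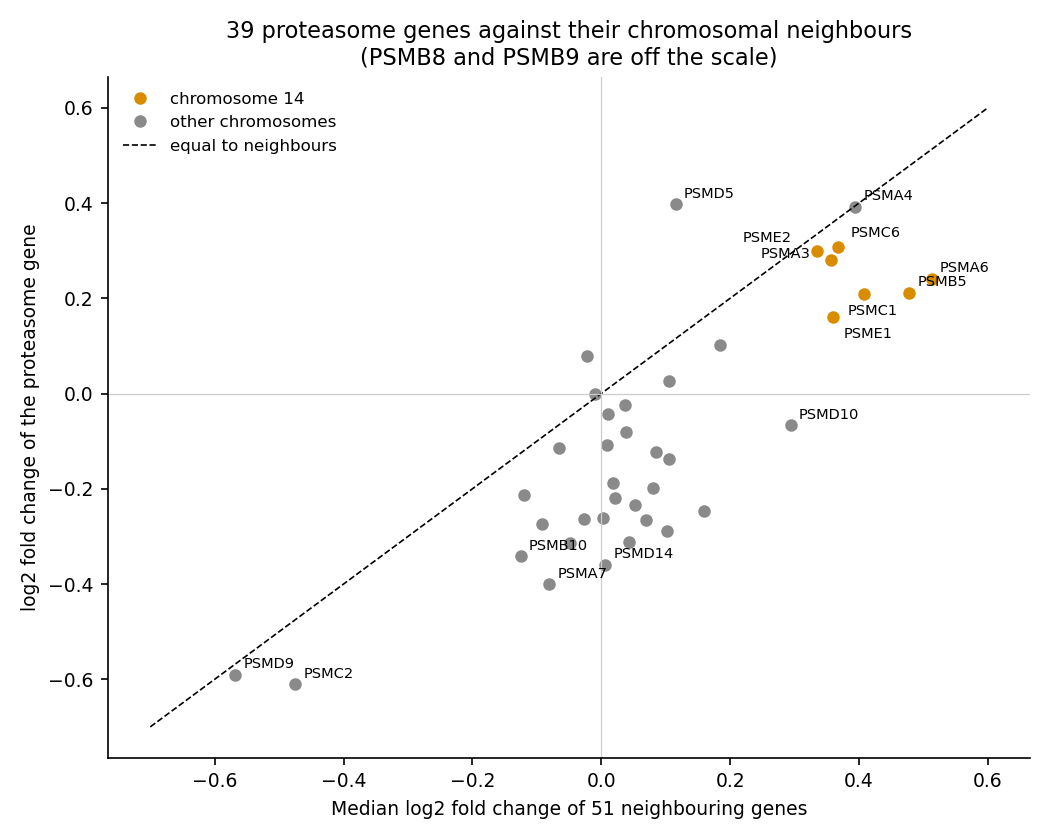
Log2 fold change of 39 genes (vertical axis) against the median log2 fold change of the 51 tested genes nearest on the chromosome (horizontal axis), both resistant minus parental. Each point is 1 gene, the dashed line marks equality, and *PSMB8* (1.40) and *PSMB9* (2.07) are left out. The 7 chromosome 14 genes form a group at the upper right, below the line.

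The proteasome genes also moved together between libraries of the same group. Resistant library 8 was the lowest resistant library in 35 of the 41 genes and in 36.1% of all genes, and resistant library 7 was the highest in 34. Parental library 2 was the lowest parental library in 31 and parental library 1 the highest in 30. Libraries 1 and 7 were also the deepest of their groups, and the part of depth was not tested. The number of genes called lower was 7 without parental library 1, 6 without parental library 3, 6 without resistant library 8 and 7 without resistant library 9, and 15 without either of the other two. The number called higher was 5 without parental library 3 or resistant library 7. Upper-quartile scaling gave 10 higher and 8 lower, and limma without the intensity trend 5 and 6. Over all genes tested, 3244 of 16347 were lower in the main fit and 2614 without the trend. The numbers lower were 2827 of 16447 without parental library 1 and 2518 of 16400 without parental library 3. They were 2623 of 16273 without resistant library 8 and 2862 of 16284 without resistant library 9. In these fits other than the main one, the share of the 41 genes called lower was no higher than that of all genes. Of the 24 called genes, 7 kept call and direction in all 14 alternatives, *PSMB8*, *PSMB9* and *PSMD5* higher and *PSMA7*, *PSMB6*, *PSMC5* and *PSMD14* lower.

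Genes that work with the proteasome were taken from lists written with earlier results of these data known. Of 5 further proteasome genes, *PSMA8*, the alpha subunit of testis, was at 0. *PSMB11*, the beta subunit of the thymus, was at or under 3 reads. Of the 3 tested, 2 were lower (66.7%, against 19.8% of all genes). *SEM1*, the smallest lid subunit, stood at 2534, 2672 and 2672 in parental and at 1511, 1367 and 1487 in resistant libraries. This log2 fold change of -0.85 (SE 0.0703, adjusted p = 1.34e-05) exceeded that of any of the 15 lower genes above, and the 51 genes around *SEM1*, also on chromosome 7, had a median of -0.44. The ubiquitin receptor *ADRM1*, on chromosome 20 like *PSMA7*, fell by 0.45 on the log2 scale (adjusted p = 0.00128).

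Of 6 other assembly chaperones, only *PSMG1*, which pairs alpha subunits, passed (16.7% higher, against 17.8% of all genes). It stood at 1306, 1008 and 1091 in parental and at 2629, 2047 and 2135 in resistant libraries (log2 fold change 1.00, adjusted p = 0.000134), on chromosome 21, where its 51 neighbours had a median of 0.79. *POMP*, which matures the core, had 0.01. Of 5 genes for ubiquitin and its activating enzymes, the polyubiquitin gene *UBB* (-0.32, adjusted p = 0.00272) was lower and none was higher. That is 20% lower, against 19.8% of all genes. Of 13 genes that handle ubiquitin at the proteasome, *UBQLN2* was higher (0.27) and *ZFAND5* (-0.41) and *UBE3C* (-0.29) were lower. These shares, 7.69% higher and 15.4% lower, were below those of all genes, 17.8% and 19.8%.

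Of 11 regulators of the standard proteasome genes, 3 were higher (27.3%, against 17.8% of all genes tested) and none lower. They were *MAFF* (log2 fold change 0.96, adjusted p = 0.000435), *NGLY1* (0.33, adjusted p = 0.0346) and *DDI2* (0.27, adjusted p = 0.0469). The groups of *DDI2* overlapped, with resistant library 9 at 3192 and parental library 1 at 3287. Both *NGLY1* and *DDI2* process NFE2L1, the factor that raises proteasome genes when the proteasome is inhibited. *NFE2L1* itself had -0.06 (adjusted p = 0.467). Of 8 regulators of the immunoproteasome genes, 7 were tested and 3 were higher (42.9%). *NLRC5*, which activates the MHC class I promoters, stood at 72.4, 154 and 171 in parental and at 483, 469 and 560 in resistant libraries (log2 fold change 2.01, adjusted p = 0.000325). *IRF1* stood at 121, 177 and 124 against 224, 643 and 570, with resistant library 7 far below the other two (log2 fold change 1.65, adjusted p = 0.00393). *IRF2* rose by 0.73, and *IRF8*, a factor of myeloid and B cells, was at 0 in all libraries. Of 14 genes of the MHC class I peptide pathway, 10 were higher (71.4%) and 1, *CANX*, was lower (7.14%, against 19.8% of all genes). The smallest p values of the higher genes were those of *B2M* (log2 fold change 2.48), *ERAP2* (2.18) and *HLA-B* (1.29).

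**Figure D5:**
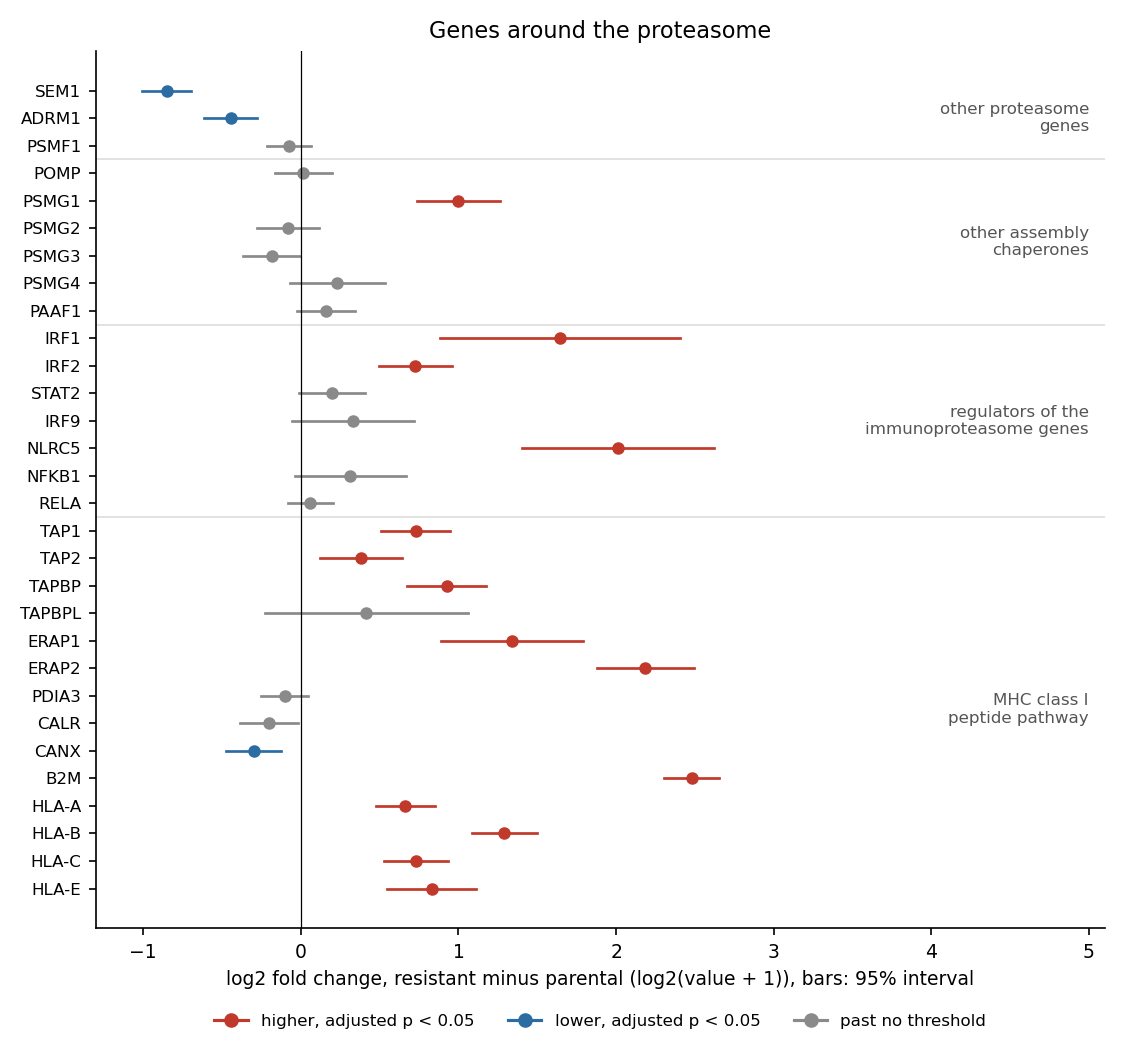
Log2 fold change (horizontal axis, resistant minus parental on log2(value + 1)) with 95% intervals of the tested genes of 4 lists, further proteasome genes, other assembly chaperones, regulators of the immunoproteasome genes and the MHC class I peptide pathway. Colours give the call. *SEM1* lies at -0.85, *PSMG1* at 1.00 and *NLRC5* at 2.01.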

How the data were processed

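RNA from 3 parental and 3 resistant H526 libraries was compared. The authors trimmed the reads with Trimmomatic 0.38, aligned and quantified them with RSEM 1.3.1 on GRCh38 with the Gencode v43 annotation, and deposited a normalized signal per gene and library (counts scaled with DESeq2 1.30.0, not whole numbers). STAR is among the tools in the submitters' processing notes. Only 29.9% to 57.2% of low values equalled a whole number of reads (tolerance 0.02). The study's count test therefore could not be repeated. Of 62757 rows, 47 second copies of pseudoautosomal genes were left out. Symbols and positions came from Gencode v44 for 62639 rows.

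Genes with a mean of at least 10 were tested as log2(value + 1) with limma 3.58.1 (R 4.3.3; lmFit, eBayes with an intensity trend, group as the only term, Benjamini-Hochberg at 0.05), after a test on simulated data. Fold changes are on that scale. Ratios got an exact two-sided permutation test. Levels per kilobase used the Ensembl canonical transcript. The alternatives used a pseudocount of 0.1 or 10, a minimum mean of 50 or none, upper-quartile scaling, quantile normalization, no trend, centring on the median of 51 neighbouring genes, and each library left out. Per-library values were given for catalytic, immunoproteasome and activator genes, called genes with an absolute log2 fold change of at least 0.5, and the highest and lowest level per kilobase. For other lists, the rule was the counts and at most 4 genes, those of smallest p. Genes of these lists named outside it (such as *POMP*, *NFE2L1*, *TAP1*, *CANX* and further markers), and per-library values of *PSMD14*, *PSMD5* and others, were chosen after their values were seen. Some genes of the other lists are not reported here. The members and lists were chosen with earlier results of these data known. Other computations used Python 3.11.15, numpy 2.4.6, pandas 2.3.3 and matplotlib 3.10.9.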

Additional observations from a re-analysis of the deposited data

How the results depend on the processing

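No paired analysis was possible because the groups share no replicate number and nothing names which parental and resistant extractions were made together. The paper calls the parental and resistant cells matched but does not give the pairs. The p-values are therefore unpaired, and any effect shared by extractions made together was not removed. The number of proteasome genes higher in resistant cells, 9, was 5 without the intensity trend, 3 under centring on 51 neighbouring genes, and between 5 and 10 with a library left out. The number lower, 15, was 8 under upper-quartile scaling, 6 without the trend, and between 6 and 15 with a library left out. The share lower was no higher than among all genes without the trend, parental library 1 or 3, or resistant library 8 or 9. The cause was not tested. Centring moved the change in the log2 ratio of *PSMB8* to *PSMB5* from 1.19 to 1.68 and that of *PSMB10* to *PSMB7* from -0.37 to -0.14. Centring also turned the sign of *PSMA3* (-0.10), *PSMA4* (-0.044), *PSMA6* (-0.26), *PSMB5* (-0.27), *PSMB7* (-0.095), *PSMC1* (-0.18), *PSMC6* (-0.071), *PSMD12* (-0.10), *PSME1* (-0.17) and *PSME2* (-0.0067). Log2 fold changes near 0 turned under upper-quartile scaling in *PSMA1* (0.021), *PSMB2* (0.0019) and *PSMD1* (0.045), under quantile normalization in *PSMA1* (0.026), *PSMB2* (0.027), *PSMB4* (0.050) and *PSMD1* (0.051), and with a library left out in *PSMB2* (between -0.087 and 0.023), *PSMB7* (between -0.024 and 0.086), *PSMD1* (between -0.058 and 0.063) and *PSMD10* (between -0.13 and 0.00035). Upper-quartile scaling moved the median of all genes to 0.04. Of the 24 called genes, 10 kept call and direction in all alternatives other than centring, adding *PSMA4*, *PSMC2* and *PSMD9* to the 7 above. All 24 did so with other pseudocounts or a minimum mean of 50, 19 without a filter, 20 under quantile normalization, 17 under upper-quartile scaling and 11 without the trend. *PSMB8* and *PSMB9* were called higher in every alternative.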
